A study of Prunus sibirica with 30 samples.

Results

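Polyubiquitin and Ubiquitin-like protein 5 (UBL5) are 2 genes of the ubiquitin fold family that were followed here during a frost treatment of Siberian apricot (Prunus sibirica) flowers. They are the complete entries whose best Swiss-Prot name is Polyubiquitin or Ubiquitin-like protein 5, 2 of the 143 genes analysed. All 143 had mean levels of 594 FPKM (fragments per kilobase and library size) or more, and less abundant genes were not analysed here. No other entry among the 143 named ubiquitin, so genes that fuse ubiquitin to a ribosomal protein were not analysed here. The strongly frost resistant clone 453 carries the label CR, and the weakly resistant clone 371 the label NC. Bloom-stage flowers of both clones, with the pistil given as the tissue, spent 0 h, 15 min, 30 min, 1 h or 2 h at -4 °C. Each of the 10 groups had 3 libraries, 30 in all, and whether the 3 came from separate trees is not stated, so p-values cover the spread among these samples only, and that may be technical. Each clone is a single genotype, so frost resistance cannot be told apart from any other difference between the clones, and no group analysed here was kept for the same times without frost, so an effect of cold and one of time or handling cannot be told apart.

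Ubiquitin is a small protein that a cascade of activating, conjugating and ligating enzymes attaches to other proteins, and chains of it send those proteins to the proteasome for breakdown. Polyubiquitin genes encode head-to-tail ubiquitin repeats in a single reading frame, which proteases cut into free ubiquitin, and in many eukaryotes their transcripts rise under heat and other stresses that damage proteins. UBL5 shares the fold but is not known to form such chains: its yeast counterpart Hub1 binds a splicing factor without being attached covalently, and in the nematode Caenorhabditis elegans it takes part in the mitochondrial unfolded protein response. The deposited annotation gives no role for UBL5 in apricot flowers.

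Polyubiquitin (PaF106G0400018188.01) lay on the plus strand of chromosome 4, from 1202032 to 1204318, and UBL5 (PaF106G0600024347.01) on the minus strand of chromosome 6, from 22184925 to 22186738, in a genome build that the deposited table does not name. The table gave a gene length of 1851 bases within a span of 2287 for Polyubiquitin, and of 703 bases within a span of 1814 for UBL5. The Polyubiquitin entry also named Polyubiquitin 10 as a second match and carried the ubiquitin family domain, while the UBL5 entry listed no protein domain. Ubiquitin repeats are nearly identical between the repeats of a gene and between ubiquitin genes, and the sources used here do not give how reads shared by several genes were assigned. The level of Polyubiquitin is therefore uncertain as that of a single gene.

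Levels are the deposited FPKM values, in which fragments are divided by the length of the gene and the size of the library. They rested on 20832 to 52606 reads for Polyubiquitin and 4119 to 12982 for UBL5, so the counting error of a single value was at most 0.693% and 1.56%, below the spread between replicates in every group. An FPKM value is a share of a library, and the library median of the 143 genes moved between groups, from 544 to 1285 FPKM in single libraries. Changes are therefore given as differences of log2(FPKM + 1), mostly with a standard error (SE). Many, but not all, are also given as relative differences, after the median of its library was subtracted from every gene. The 2 scales can differ in sign and in which genes are called. Of the 143 genes that set this median, 69 were named as ribosomal proteins. A gene was called changed when the limma p-value, adjusted over the 143 genes by the Benjamini-Hochberg method, was below 0.05. Of the pistil markers that were looked for, such as S-RNase and STIG1, 0 were among the 143 genes, so the labelled tissue could not be checked. Markers of green tissue had 8 members there, and their summed level is given beside several of the results, whether or not it moved with them.

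Libraries of a group were not always nearest to each other. By the root mean square difference over the 143 genes of the relative log2 values, 15 of 30 libraries were nearest to a library of another time, in each case of the same clone. The library labelled NC 30 min replicate 3 was nearest to NC 2 h replicate 1, at a distance of 0.163, while its own group stood at 0.315 and 0.425. CR 30 min replicate 1 stood at 0.340 and 0.350 from its own group and at 0.228 from CR 15 min replicate 2. Values without these libraries are given beside the main 30 min results.

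Polyubiquitin was highest in NC at 2 h, and the ranges of the 9 other groups overlapped in sequence. The NC libraries at 2 h stood at 1150, 1617 and 1002 FPKM, which are the highest 3 of all 30 values. The NC libraries at 0 h stood at 738, 773 and 724 FPKM, so the 2 groups did not overlap. Over the 9 other groups single values ran from 533 to 965 FPKM, and every pair of groups next to each other in the order of their means had overlapping ranges. The mean in NC at 2 h was 1256 ± 321 FPKM (SD, n = 3), followed by CR at 1 h with 773 ± 64.4 and NC at 30 min with 752 ± 186. The lowest mean was that of NC at 15 min, 591 ± 50.1 FPKM.

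**Figure D1:**
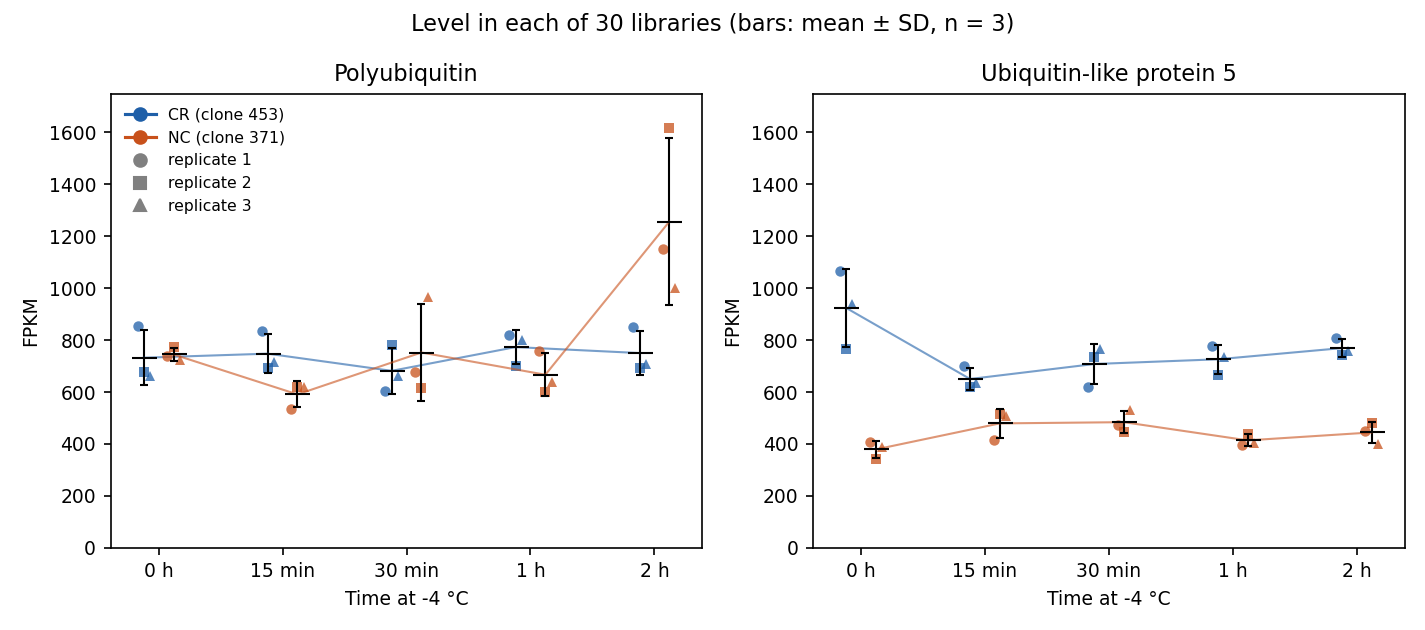
Level in FPKM of Polyubiquitin (left) and UBL5 (right) against time at -4 °C in each of the 30 libraries, with CR in blue and NC in orange, a symbol for each replicate, and black bars for the mean ± SD of 3 libraries. Polyubiquitin was at 1002 FPKM or more in the 3 NC libraries at 2 h and below that in every other library, and UBL5 was higher in all 15 CR libraries (618 to 1067) than in any of the 15 NC libraries (342 to 532).

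Between 0 h and 2 h Polyubiquitin rose in NC by 0.72 on the log2 scale (SE 0.158, 95% interval 0.40 to 1.05, limma adjusted p = 0.000579), 1.65-fold. Of the 143 genes 67.8% were called in that comparison, 4.9% higher and 62.9% lower, and the ranges of the 2 groups did not overlap for 51.7%. Polyubiquitin had the rank 5 of 143 by size of rise. In these bulk samples fewer cells of a type and less RNA per cell cannot be told apart. While it rose, the median of all genes changed by -0.39, and relative to the library median Polyubiquitin rose by 1.05 (SE 0.175, limma adjusted p = 0.000175), where 14.7% of genes were called higher. The 3 libraries differed among themselves, since replicate 2 held the highest Polyubiquitin value of the series, 1617 FPKM, and the lowest library median, 544 FPKM. Without replicate 2 the rise was 0.53 (limma adjusted p = 0.0119) and 0.77 relative (adjusted p = 0.00178).

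The rise in NC came between the last 2 times sampled. At 1 h the NC libraries stood at 759, 602 and 640 FPKM, below all 3 libraries at 2 h. The step from 1 h to 2 h was 0.89 (SE 0.158, limma adjusted p = 0.000201), or 1.25 relative (SE 0.175, adjusted p = 2.07e-05). In this step 4.2% of genes were called higher and 69.9% lower, and 62.9% had ranges that did not overlap. The step does not use the 0 h libraries, but it shares the 2 h libraries with the change from 0 h. Green tissue markers summed to 10300 to 13428 FPKM in NC at 1 h and to 5928 to 8433 at 2 h, and their part in the step was not tested.

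Earlier in NC no change of Polyubiquitin was called. At 15 min the libraries stood at 533, 619 and 621 FPKM, each below the 3 libraries at 0 h, with a difference of -0.34 (SE 0.158, limma adjusted p = 0.394) and -0.33 relative (adjusted p = 0.190). Ranges did not overlap for 18.9% of the 143 genes there, and 2.1% were called, 1.4% lower. At 30 min replicates 1 and 2 stood at 676 and 617 FPKM and replicate 3, the library nearest to the 2 h group, at 965. The difference from 0 h was -0.01 (SE 0.158, limma adjusted p = 0.976) with it and -0.21 (adjusted p = 0.869) without it. At 1 h the difference was -0.17 (SE 0.158, limma adjusted p = 1.00 after rounding), the lowest of the 143 genes at that time. limma called 0% of the genes at 30 min and at 1 h, with 19 and 1 genes at an unadjusted p below 0.05, and 0 at both times with voom weights. On the relative scale 14.7% of genes were called at 15 min, 14.7% at 30 min and 0.699% at 1 h.

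In CR the level of Polyubiquitin as deposited stayed within the spread between replicates at each time. The libraries of 0 h stood at 855, 678 and 664 FPKM, those of 15 min at 834, 694 and 715, and those of 30 min at 604, 780 and 661. The 1 h libraries had 818, 699 and 802 FPKM and the 2 h libraries 849, 692 and 709. From 0 h the level differed by 0.04 (15 min), -0.10 (30 min), 0.08 (1 h) and 0.04 (2 h), each with an SE of 0.158, and the limma adjusted p were 0.854, 0.576, 0.677 and 0.914. Without CR 30 min replicate 1 the 30 min difference was -0.018 (limma adjusted p = 0.957). The 95% interval at 2 h ran from -0.29 to 0.36, so a rise as large as the 0.72 of NC lay outside it. Of the 143 genes 60.8% were called in CR at 15 min, 60.1% lower and 0.699% higher, with a median change of -0.39. Relative to the median Polyubiquitin stood above its 0 h level by 0.40 in the 15 min group (SE 0.175, limma adjusted p = 0.0787) and by 0.19, 0.31 and 0.15 in the later ones, none of them called. Its relative values at 0 h (-0.59, -0.49 and -0.67) lay below all those at 15 min (-0.11, -0.21 and -0.24) and 1 h (-0.24, -0.34 and -0.23). The share of all genes without overlap was not taken on this scale, where 13.3% were called higher at 15 min.

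The difference between the 2 clones' changes was tested by the clone by time interaction. Over the 4 times it was called for Polyubiquitin (F = 6.72, limma adjusted p = 0.00292; relative adjusted p = 0.00105), as for 78.3% of the genes, or 49% relative. At 2 h the change in CR was lower than that in NC by -0.69 (SE 0.224, limma adjusted p = 0.0325), with 3.5% of genes called lower. This call was lost without any of 9 of the 12 libraries, with the compared groups fitted alone (limma adjusted p = 0.0686) and without NC 2 h replicate 2 (-0.49, limma adjusted p = 0.145). On the relative scale it was -0.90 (SE 0.248, limma adjusted p = 0.0123) and stayed called without each library in turn (-1.10 to -0.62). There 24.5% of genes were called, 8.39% lower. At 15 min the interaction was 0.37 (limma adjusted p = 0.188), and 0.73 relative (adjusted p = 0.0236), with the opposite sign to that at 2 h. The relative test at 15 min called 46.9% of genes, 19.6% higher.

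**Figure D2:**
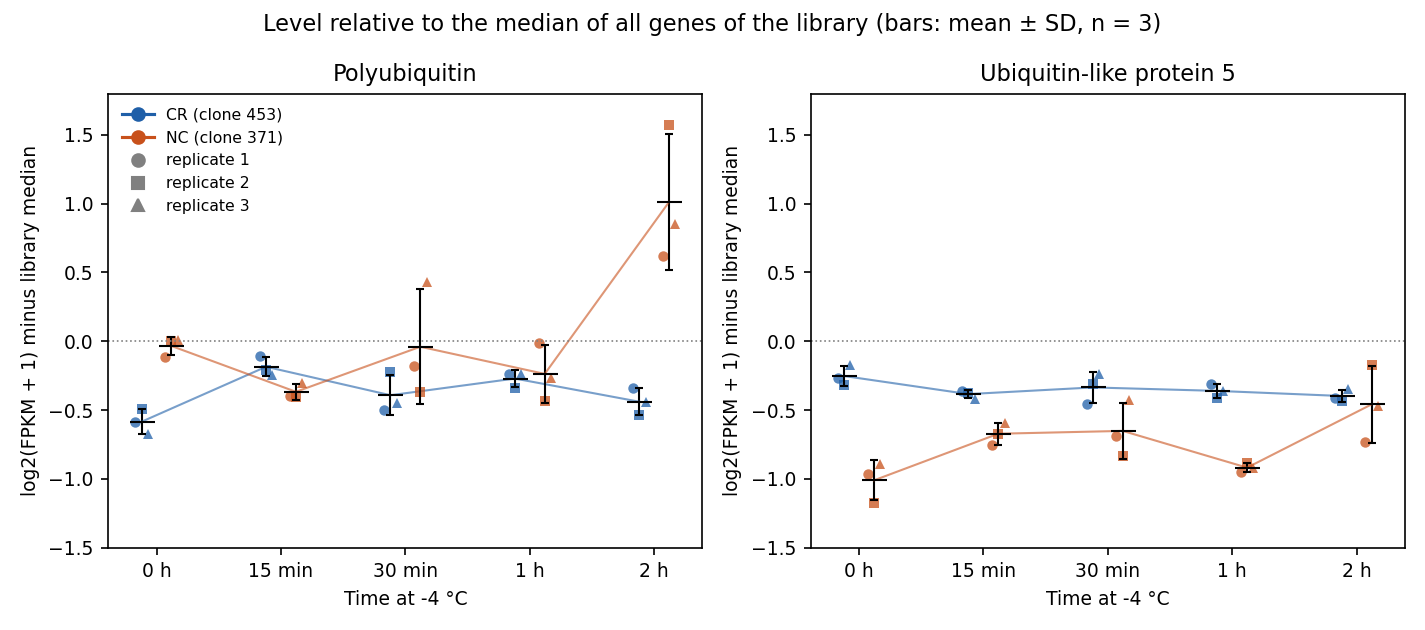
Level of Polyubiquitin (left) and UBL5 (right) as log2(FPKM + 1) minus the median of the 143 genes of the same library, against time at -4 °C, with CR in blue, NC in orange, a symbol for each replicate and bars for the mean ± SD of 3 libraries. Polyubiquitin lay above the library median by 0.62 to 1.57 in NC at 2 h, and UBL5 lay below it in all 30 libraries.

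Compared at the same time, the clones differed in Polyubiquitin at 2 h, where CR was lower by -0.72 (SE 0.158, limma adjusted p = 0.000139) and by -1.45 relative (SE 0.175, adjusted p = 3.35e-07). The CR libraries lay between 692 and 849 FPKM, all below the 3 NC libraries, as ranges did not overlap for 90.2% of the 143 genes. Of the genes 84.6% were called higher in CR at that time and 5.59% lower, or 39.2% and 23.8% relative. The summed green tissue markers ran from 12186 to 12604 FPKM in CR and from 5928 to 8433 in NC at 2 h, and their part in the clone differences of either gene was not tested. At 0 h the clones overlapped, with 732 ± 107 FPKM in CR and 745 ± 25.3 in NC (-0.03, SE 0.158, limma adjusted p = 0.844), at a time when 74.8% of genes were called and 70.6% were called higher in CR. Relative to the median Polyubiquitin was then lower in CR by -0.55 (SE 0.175, adjusted p = 0.00885), where 27.3% of genes were called lower. At 15 min all 3 CR libraries were above all 3 NC libraries (0.34, limma adjusted p = 0.133), as for 37.8% of genes without overlap in either direction, and the difference was not called. At 30 min the difference was -0.12 (limma adjusted p = 0.514), and 0.07 without NC 30 min replicate 3 (adjusted p = 0.763). At 1 h it was 0.22 (limma adjusted p = 0.255), and -0.03 relative.

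As deposited UBL5 differed between the clones at every time, and its level in CR was above that in NC in all libraries. The CR libraries ran from 618 to 1067 FPKM with a lowest group mean of 650 ± 43.4 at 15 min, and the NC libraries from 342 to 532 FPKM with a highest group mean of 484 ± 43.5 at 30 min. The mean of UBL5 over all libraries was 598 FPKM, close to the lowest mean of the 143 genes, 594. All NC values lay below 594, so UBL5 was among the 143 genes only through its level in CR. The p-values and ranks of its clone differences do not allow for this selection. Of the 143 genes, 16.8% had all 15 CR libraries above all 15 NC libraries and 2.1% had them below. Averaged over the 5 times UBL5 was higher in CR by 0.77 (SE 0.0545, 95% interval 0.66 to 0.88, limma adjusted p = 8.88e-13), 1.71-fold, the rank 11 of 143. In that comparison 88.8% of genes were called, 81.8% higher in CR and 6.99% lower, and the median difference was 0.42. The relative difference over the 5 times was 0.40 (SE 0.0462, limma adjusted p = 4.85e-08), with 41.3% of genes called higher.

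At 0 h the CR libraries of UBL5 stood at 1067, 767 and 938 FPKM and the NC libraries at 408, 342 and 387. The difference was 1.27 (SE 0.122, limma adjusted p = 4.95e-09), 2.42-fold, the rank 4 of 143, where 70.6% of genes were called higher. The relative difference was 0.76 (SE 0.103, limma adjusted p = 2.14e-06), where 37.1% of genes were called higher. The ranges of the clones did not overlap at 0 h, as for 73.4% of genes.

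During frost the clone difference of UBL5 was smaller at 15 min, 0.44 (SE 0.122, limma adjusted p = 0.0142), where 11.2% of genes were called higher. The CR libraries then stood at 700, 618 and 633 FPKM and the NC libraries at 417, 514 and 507. This call was lost without CR 15 min replicate 1 (0.39, limma adjusted p = 0.0920) or NC 15 min replicate 1 (0.35, adjusted p = 0.0997). At 30 min the difference was 0.55 (limma adjusted p = 0.00118, 46.2% of genes called, 39.9% higher), 0.62 without NC 30 min replicate 3 (adjusted p = 0.00197) and 0.64 without CR 30 min replicate 1 (adjusted p = 0.00159). At 1 h it was 0.81 (SE 0.122, limma adjusted p = 2.42e-05), the highest of the 143 genes, with CR at 778, 667 and 734 FPKM and NC at 397, 440 and 406. At that time 47.6% of genes were called and 41.3% were called higher in CR.

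At 2 h UBL5 stood at 806, 742 and 760 FPKM in CR and at 451, 483 and 400 in NC, a difference of 0.79 (SE 0.122, limma adjusted p = 1.11e-06) where 84.6% of genes were called higher. It had the rank 78 of 143 by then. After subtraction of the median UBL5 differed by 0.06 (SE 0.103, 95% interval -0.15 to 0.27, limma adjusted p = 0.631). This loss depended on the genes used for centring, since the call stayed when ribosomal protein genes were left out of the median. The relative differences at 15 min (0.29, limma adjusted p = 0.0481) and 30 min (0.32, adjusted p = 0.0174) passed, with 10.5% and 23.8% of genes called higher. The first was lost without any of the 6 libraries left out in turn, and the second without 3 of 6 (0.22 to 0.43 over the 6). Without NC 30 min replicate 3 the second was 0.43 (limma adjusted p = 0.00331), and without CR 30 min replicate 1 it was 0.38 (adjusted p = 0.0117). The relative difference at 1 h was 0.56 (limma adjusted p = 0.000139), where 21% of genes were called higher, and was called without each library in turn.

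**Figure D3:**
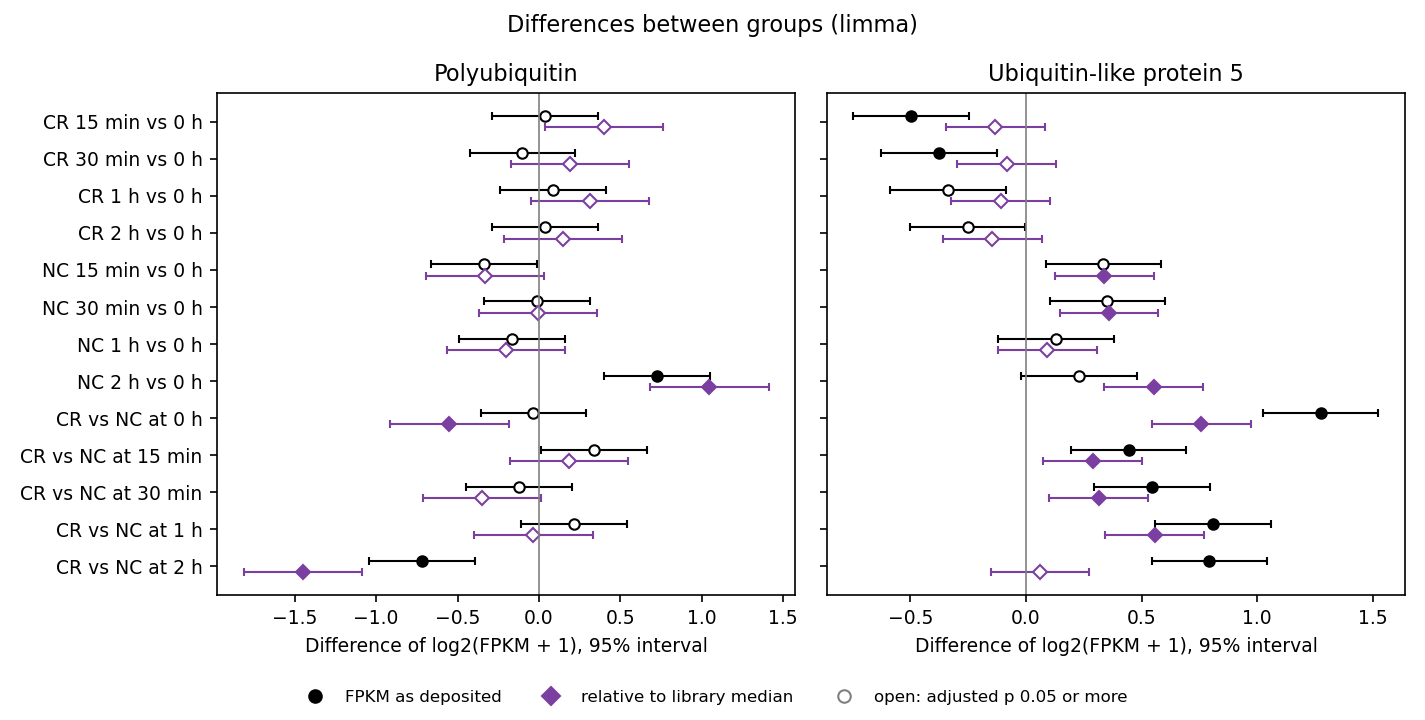
Differences of log2(FPKM + 1) for Polyubiquitin (left) and UBL5 (right), from limma, with 95% intervals: black circles use FPKM as deposited, purple diamonds the values relative to the library median, and open symbols mark an adjusted p of 0.05 or more. Polyubiquitin passed in NC at 2 h and in CR against NC at 2 h on both scales, and UBL5 passed in CR against NC at each time but not at 2 h relative to the median (0.06).

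In CR the level of UBL5 fell in the first 15 min. From 1067, 767 and 938 FPKM at 0 h it was 700, 618 and 633 at 15 min, so the groups did not overlap, as for 61.5% of the 143 genes. The change was -0.50 (SE 0.122, limma adjusted p = 0.00298), where 60.1% of genes were called lower and the median change was -0.39. It was -0.13 relative to the median (SE 0.103, limma adjusted p = 0.332), so UBL5 fell with most of the genes. The summed level of the 8 green tissue markers ran from 10479 to 16306 FPKM in CR at 0 h and from 8357 to 10289 at 15 min, and their part in the result was not tested.

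Later in CR the mean level of UBL5 as deposited lay between those at 0 h and 15 min. At 30 min it was 621, 735 and 767 FPKM, a change of -0.38 (SE 0.122, limma adjusted p = 0.0239, 33.6% of genes called lower). This call was lost without CR 0 h replicate 1 (-0.27, limma adjusted p = 0.226), CR 0 h replicate 3 (-0.36, adjusted p = 0.0597) or CR 30 min replicate 1 (-0.29, adjusted p = 0.121). The change was -0.34 at 1 h (limma adjusted p = 0.0714, 6.29% of genes called lower) and -0.25 at 2 h (adjusted p = 0.796, 0% of genes called, 6 genes at an unadjusted p below 0.05, 0 with voom weights). From 15 min to 2 h the 3 later libraries were all above the 3 earlier ones, as for 68.5% of genes without overlap, with a difference of 0.24 (SE 0.122, limma adjusted p = 0.126). The library median rose by 0.26 in that step, and the relative difference of UBL5 was -0.014 (limma adjusted p = 0.914). Relative to the median its changes from 0 h were -0.083 (30 min), -0.11 (1 h) and -0.15 (2 h), none of them called. Green tissue markers summed to 12186 to 12604 FPKM in CR at 2 h, above their range at 15 min. The F test over the 4 times passed as deposited (F = 4.62, limma adjusted p = 0.0242, 35% of genes) but not on the relative scale (adjusted p = 0.714).

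In NC the level of UBL5 was lowest at 0 h. At 15 min its libraries stood at 417, 514 and 507 FPKM and at 30 min at 474, 447 and 532, all above the 3 libraries at 0 h. The differences were 0.34 (SE 0.122, limma adjusted p = 0.172) and 0.35 (SE 0.122, adjusted p = 0.265), which did not pass, with 18.9% and 16.1% of genes without overlap. Without NC 30 min replicate 3 the second was 0.28 (limma adjusted p = 0.869). The relative differences were 0.34 (SE 0.103, limma adjusted p = 0.0262) and 0.36 (SE 0.103, adjusted p = 0.0349) and passed, with 9.09% and 6.29% of genes called higher. The relative call at 15 min was lost without NC 0 h replicate 2 and the one at 30 min without NC 30 min replicate 3 (0.25, limma adjusted p = 0.208), among others. At 1 h the difference was 0.13 (limma adjusted p = 1.00 after rounding) and 0.09 relative. Green tissue markers had a mean sum of 11018 FPKM in NC at 0 h (10015 to 12148) and of 8396 at 15 min (6122 to 10072). They were thus lower on average at 15 min while UBL5 was higher, and their part was not tested.

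At 2 h in NC the levels of UBL5, 451, 483 and 400 FPKM, overlapped those at 0 h, with a difference of 0.23 (SE 0.122, limma adjusted p = 0.0941) at a time when 62.9% of genes were called lower. Relative to the median UBL5 rose by 0.55 (SE 0.103, limma adjusted p = 0.000317), where 14.7% of genes were called higher, and by 0.46 from 1 h to 2 h (adjusted p = 0.00264, 16.1% called higher). The first of these rises was 0.41 to 0.69 without each library in turn, and it passed each time. The relative values of UBL5 in NC at 2 h were -0.73, -0.17 and -0.47, in libraries with medians of 749, 544 and 555 FPKM. The summed green tissue markers ran from 10015 to 12148 FPKM in NC at 0 h and from 5928 to 8433 at 2 h, and the Olee1-like protein, the single pollen and anther marker among the 143 genes, from 619 to 688 and from 402 to 551 FPKM. Their part in the results of Polyubiquitin and UBL5 was not tested.

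The changes of UBL5 differed between the clones. The interaction over the 4 times passed (F = 6.94, limma adjusted p = 0.00274; relative adjusted p = 0.00828), where 78.3% of genes passed, or 49% relative. The change in CR minus that in NC was -0.83 at 15 min (SE 0.172, limma adjusted p = 0.00217), and -0.47 relative (SE 0.146, adjusted p = 0.0147). At 15 min 42.7% of genes were called in this test, 42% of all genes lower, or 46.9% and 27.3% relative. UBL5 stayed called without each library in turn on both scales. At 30 min it was -0.73 (SE 0.172, limma adjusted p = 0.0112, 9.09% of genes called, 8.39% lower), and -0.66 without NC 30 min replicate 3 (adjusted p = 0.0456). Without CR 0 h replicate 1, CR 30 min replicate 1 or NC 0 h replicate 2 the call was lost, at -0.62, -0.64 and -0.66. At 2 h it was -0.48 (limma adjusted p = 0.0518), and -0.70 relative (adjusted p = 0.0028, 8.39% of genes called lower).

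The ratio of Polyubiquitin to UBL5 within a library does not depend on how the library was scaled, and both levels are per length. In CR the log2 ratio had group means from -0.33 ± 0.161 at 0 h to 0.20 ± 0.0471 at 15 min (SD, n = 3). The NC groups had mean ratios of 0.98 ± 0.175 (0 h), 0.30 ± 0.0451 (15 min), 0.61 ± 0.215 (30 min), 0.68 ± 0.242 (1 h) and 1.47 ± 0.234 (2 h). The ratio in NC was thus lowest at 15 min and highest at 2 h, and at each time the 3 NC libraries lay above the 3 CR libraries.

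**Figure D4:**
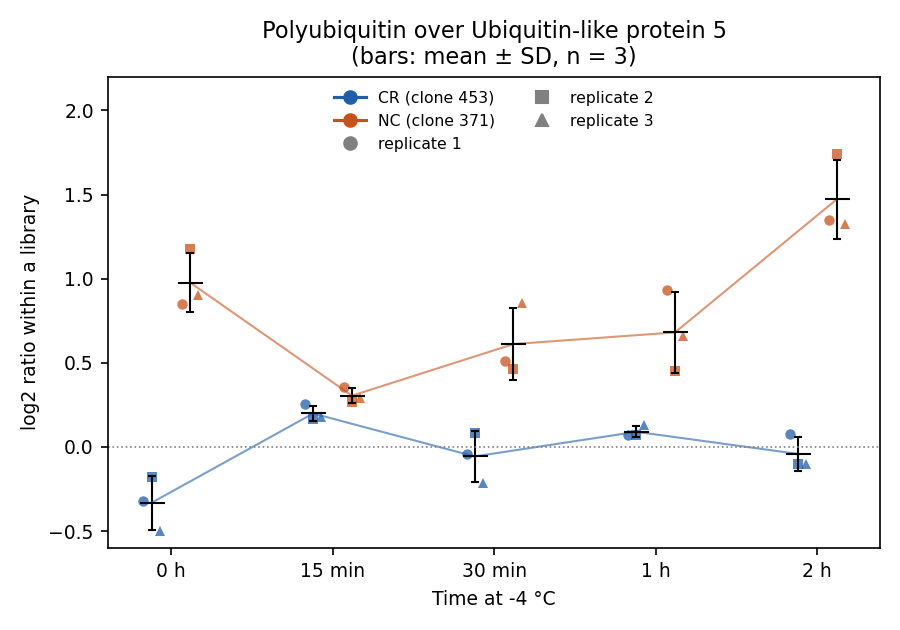
Log2 ratio of Polyubiquitin to UBL5 within each library, from log2(FPKM + 1), against time at -4 °C, with CR in blue, NC in orange, a symbol for each replicate and bars for the mean ± SD of 3 libraries. The dotted line marks equal levels, and the NC group means lie from 0.30 at 15 min to 1.47 at 2 h against -0.33 to 0.20 in CR.

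Averaged over the 5 times the log2 ratio was lower in CR by -0.84 (two-sided exact permutation of clone labels within each time, p = 6.25e-07, the smallest that 3200000 regroupings can give, 1e-05 after adjustment over 16 comparisons). This restates the clone differences of the 2 genes and is no separate evidence. As deposited these were -0.06 for Polyubiquitin, not called, and 0.77 for UBL5, and relative to the median -0.44 and 0.40. The difference was widest at 2 h, -1.51, and at 0 h, -1.31, and smallest at 15 min, -0.11. Each comparison of 3 against 3 libraries can reach an exact permutation p of 0.1 at the smallest, and 12 of 15 reached it, with an adjusted p of 0.123. Among them the ratio changed by 0.50 between 0 h and 2 h in NC and by 0.29 in CR, and by -0.67 and 0.53 between 0 h and 15 min. In CR the ratios at 15 min, 1 h (a change of 0.42) and 2 h did not overlap those at 0 h. At 30 min the clone difference was -0.67, and it was -0.54 without NC 30 min replicate 3 and -0.68 without CR 30 min replicate 1. The changes from 0 h to 15 min had opposite signs in the 2 clones, without a test of that contrast.

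Within a library Polyubiquitin ranked 11 to 26 of 143 by level in NC at 2 h and 44 to 135 in all other libraries, where rank 1 is the most abundant gene. UBL5 ranked 137 to 143 in NC from 0 h to 1 h apart from NC 30 min replicate 3, where it ranked 119, and at 140, 91 and 121 in NC at 2 h. In CR it ranked 94 to 126. All NC values of UBL5 lay below 594 FPKM, the lowest mean of the 143 genes. Its low ranks in NC thus follow in part from which genes were analysed. At 2 h Polyubiquitin was 1 of the 8 genes (5.59%) called lower in CR than in NC as deposited, and 1 of the 34 (23.8%) called lower relative to the library median.

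**Figure D5:**
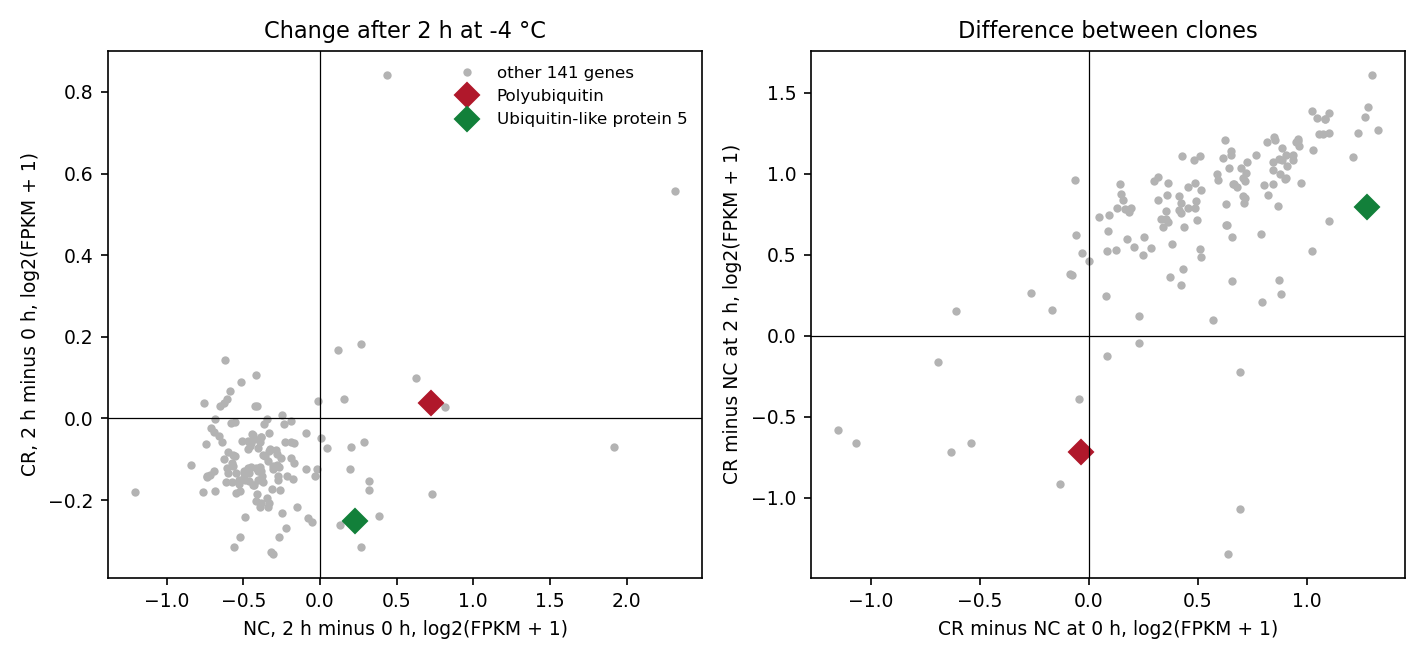
Differences of log2(FPKM + 1) for the 143 genes, with Polyubiquitin in red, UBL5 in green and the other genes in grey: on the left the change from 0 h to 2 h in NC (x) and CR (y), and on the right the difference of CR minus NC at 0 h (x) and at 2 h (y). Polyubiquitin lies at 0.72 in NC and 0.04 in CR, and at -0.03 and -0.72 between the clones, while UBL5 lies at 1.27 and 0.79 between the clones.

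Other parts of protein turnover were represented by few of the abundant genes. Enzymes of ubiquitin conjugation, other ubiquitin-like modifiers, proteasome subunits and splicing factors had 0 members among the 143 genes. Chaperones and folding enzymes had 3: peptidyl-prolyl cis-trans isomerase, which turns proline bonds, and the heat shock proteins HSP90-2 and heat shock cognate 70 kDa protein, which hold and refold proteins. Proteases had 2: the aspartyl protease AED3 and the cysteine protease RD19A, an Arabidopsis counterpart of which is induced by drought.

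While Polyubiquitin rose in NC between 0 h and 2 h, 2 of 3 chaperone genes fell and 0 rose, beside 62.9% of all genes called lower, with a median change of -0.74 beside -0.39 over all genes. Heat shock cognate 70 kDa protein went from 868, 771 and 738 FPKM to 535, 435 and 441, a change of -0.75 (SE 0.137, limma adjusted p = 9.92e-05) and -0.43 relative (adjusted p = 0.00352). The peptidyl-prolyl cis-trans isomerase had a change of -0.22 (limma adjusted p = 0.173). HSP90-2 had a change of -0.74 (SE 0.124, limma adjusted p = 9.92e-05). For HSP90-2 the interaction at 2 h was 0.68 (limma adjusted p = 0.0159), with the sign opposite to that of Polyubiquitin. Most genes had that sign too, with a median of 0.26 over all genes, 13.3% called higher and 3.5% lower.

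Of the 2 proteases RD19A rose in NC by 2 h and AED3 fell, beside 4.9% of all genes called higher and 62.9% lower. RD19A went from 596, 507 and 516 FPKM at 0 h to 877, 1254 and 770 at 2 h, a change of 0.81 (SE 0.198, limma adjusted p = 0.00139), with the highest of the 3 in replicate 2, as for Polyubiquitin. At 30 min RD19A stood at 741 and 592 FPKM in replicates 1 and 2 and at 1450 in replicate 3, the library in which Polyubiquitin was also highest of its group. In CR at 2 h the change of RD19A was 0.03 (limma adjusted p = 0.942), beside 0.04 for Polyubiquitin. The interaction of RD19A at 2 h was -0.78 (limma adjusted p = 0.0518), which was not called as deposited but was called lower relative to the median. AED3 had a change of -0.58 in NC at 2 h (SE 0.117, limma adjusted p = 0.000313).

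The genes most like Polyubiquitin, by Pearson's r over the 30 libraries of relative log2 values, were metallothionein-like protein type 2 (r = 0.87), aquaporin PIP1-4 (0.84), RD19A (0.83), ARG2 (0.83) and the Calvin cycle protein CP12-1 (0.78). Much of this rests on the 3 NC libraries at 2 h: without them r was 0.43, 0.65, 0.68, 0.46 and 0.50 over 27 libraries, and RD19A and PIP1-4 then had the ranks 1 and 2. Over the 25 libraries left without NC 30 min replicate 3 and CR 30 min replicate 1 as well, r was 0.059, 0.54, 0.44, -0.014 and 0.26, and PIP1-4 had the highest rank of the 5 genes, 20. The genes most like UBL5 were the 60S ribosomal proteins L37a (r = 0.80), L38 (0.79), L39 (0.73) and L23A (0.73) and the mitochondrial ATP synthase 6 kDa subunit (0.77). Ribosomal proteins made up 69 of all 143 genes. Without the NC libraries at 2 h the r of L38 was 0.95, the highest of all genes, and over the 25 libraries it was 0.96. Between Polyubiquitin and UBL5 r was -0.0066 over 30 libraries, -0.38 over 27 and -0.56 over 25. These r are descriptions over libraries that share clone, time and library composition. RD19A and UBL5 were moreover among the 143 genes only through the groups in which they were high.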

How the data were processed

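RNA sequencing libraries of flowers from 10 groups of 3 were analysed. The authors deposited FPKM values, with a column for each library. Per the submitters' processing notes the tools included GATK, HISAT2, SAMtools 0.1.18 and Picard, without their roles. No source used here gives the read counter, annotation or build. Of the table, 143 complete genes were used and 1 incomplete entry was left out. FPKM times gene length was a whole multiple of a single step per library for 4290 of 4290 values (relative tolerance 1e-06), which gave reads: 1731103 to 3544827 per library over these genes.

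A model with 10 group means was fitted to log2(FPKM + 1) of all 143 genes and 30 libraries with limma 3.58.1 in R 4.3.3, with a mean-variance trend. A floor of 1 FPKM in 3 libraries removed 0 genes. P-values are two-sided. Ratios within a library were tested by exact permutation. The fit and the permutation test were tested on simulated data. The members, gene lists and tests were chosen with earlier results of these data known. Named genes are both members, the listed genes of protein turnover, and the 5 genes with the highest correlation to each member. Alternatives were another centring, pseudocount, filter, variance prior, fitted groups, voom on recovered reads, a replicate block and libraries left out.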

Additional observations from a re-analysis of the deposited data

Results flagged for a closer look

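A tested difference between the 2 clones' changes from 0 h was found for both genes, as for 78.3% of the 143 genes over the 4 times. For Polyubiquitin the change in CR minus that in NC was -0.69 at 2 h (limma adjusted p = 0.0325, 16.8% of genes called), a call lost without any of 9 of the 12 libraries, and the test over the 4 times gave F = 6.72 (adjusted p = 0.00292). For UBL5 it was -0.83 at 15 min (limma adjusted p = 0.00217, 42.7% of genes called) and -0.73 at 30 min (adjusted p = 0.0112, 9.09% of genes called), the second lost without any of 3 of 12 libraries, and the test over the 4 times gave F = 6.94 (adjusted p = 0.00274). The groups hold 3 libraries each, so single libraries were not tested for standing apart.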

How the results depend on the processing

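For both genes the calls did not change with no variance trend or voom on recovered reads. They also stayed with another pseudocount (0.1 or 10), which could hardly move values of 342 FPKM or more. Leaving out the floor repeats the main fit, since the floor removed 0 genes. A filter at a mean of 700 FPKM removed UBL5, which then has no value, and changed no call of Polyubiquitin. Within a clone 3 to 6 of 10 same-numbered pairs of libraries correlated above 0.1, without a comparison to pairs of different numbers. Whether the replicate numbers pair the libraries was therefore not settled. A replicate block changed no call of either gene and moved the count of called genes in CR at 1 h from 9 to 17.

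Centring each library on its median turned the direction for Polyubiquitin in CR at 30 min (0.19), CR against NC at 1 h (-0.034), the interaction at 30 min (0.20), CR from 15 min to 2 h (-0.25) and the mean interaction (0.14), and for UBL5 in CR from 15 min to 2 h (-0.014). It brought calls for Polyubiquitin at 0 h (-0.55), over 5 times (-0.44) and in the interaction at 15 min (0.73), and for UBL5 in NC at 15 min (0.34), 30 min (0.36), 2 h (0.55), 1 h to 2 h (0.46) and over 4 times (0.34) and in the interaction at 2 h (-0.70). It ended those of UBL5 in CR at 15 min (-0.13), 30 min (-0.083) and over 4 times (-0.12), and between clones at 2 h (0.061). Centring on genes outside the ribosomal proteins gave, in the same order, 0.15, 0.21, -0.21 and 0.14 for the Polyubiquitin values that turned (1 h did not turn), -0.40, -0.29 and 0.64 for its calls gained, 0.38, 0.30, 0.40, 0.32, 0.29 and -0.56 for those of UBL5, and -0.18, -0.12 and -0.16 for the calls of UBL5 in CR that ended. The call of UBL5 between clones at 2 h did not end with that centring.

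Fitting only the compared groups ended the calls of the Polyubiquitin interaction at 2 h (-0.69), UBL5 in CR at 30 min (-0.38) and its interaction at 30 min (-0.73), and gained Polyubiquitin between clones at 1 h (0.22) and UBL5 in CR from 15 min to 2 h (0.24). Without NC 2 h replicate 2 and NC 30 min replicate 3 together, a choice made after seeing the data, Polyubiquitin turned between clones at 30 min (0.071) and over 5 times (0.014), in the interaction at 30 min (0.10) and in the means over 4 times of NC (-0.045) and of the interaction (0.060), and its interaction at 2 h lost its call (-0.49). The cause was not tested.

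With 1 library left out, the ranges that held a change of call or direction were, for Polyubiquitin, -0.045 to 0.15 in CR at 15 min, -0.20 to 0.015 at 30 min, -0.054 to 0.16 at 2 h, -0.089 to 0.084 from 15 min to 2 h and -0.052 to 0.13 over 4 times, -0.21 to 0.12 in NC at 30 min, -0.15 to 0.032 and -0.25 to 0.071 between clones at 0 h and 30 min, and -0.22 to 0.10, -0.83 to -0.49 and -0.10 to 0.079 in the interaction at 30 min, at 2 h and over 4 times. For UBL5 they were -0.50 to -0.27, -0.46 to -0.23 and -0.49 to -0.26 in CR at 30 min, at 1 h and over 4 times, 0.19 to 0.32 in NC over 4 times, 0.35 to 0.50 between clones at 15 min, and -0.86 to -0.62, -0.59 to -0.36 and -0.61 to -0.37 in the interaction at 30 min, 1 h and 2 h. Relative to the median, direction turned for Polyubiquitin in NC at 30 min (-0.24 to 0.16) and between clones at 1 h (-0.13 to 0.078), and for UBL5 between clones at 2 h (-0.074 to 0.20) and in CR from 15 min to 2 h (-0.040 to 0.0056). Relative calls of UBL5 were also lost in some of these fits in NC at 15 min (0.26 to 0.40) and 30 min (0.25 to 0.45), between clones at 15 min (0.25 to 0.33) and 30 min (0.22 to 0.43) and in the interaction at 30 min (-0.53 to -0.33). The count of called genes ranged over all alternatives from 54 to 116 in NC at 2 h (97 as reported), from 18 to 106 in CR at 15 min (87) from 0 to 95 in CR at 30 min (48), from 0 to 71 in CR at 1 h (9), from 1 to 78 in CR from 15 min to 2 h (32), from 0 to 23 and 0 to 21 in NC at 15 min (3) and 30 min (0), and from 52 to 117 in NC from 1 h to 2 h (106). Between clones it ranged from 5 to 34 at 15 min (21), from 37 to 86 at 30 min (66) and from 30 to 106 at 1 h (68), and in the interaction from 26 to 75 at 15 min (61), from 0 to 60 at 30 min (13), from 0 to 32 at 1 h (1) and from 1 to 73 at 2 h (24). In the tests over 4 times it ranged from 14 to 84 in CR (50), from 47 to 118 in NC (100) and from 70 to 123 in the interaction (112). With 3 libraries a group, the spread between libraries and not counting error limits these comparisons.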
